A study of Homo sapiens with 24 samples.

Results

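The iron uptake, storage and export genes described here are TFRC, SLC11A2, FTH1, FTL, NCOA4, SLC40A1, ACO1, IREB2 and BLVRB, 9 of the 26450 gene rows of the deposited expression table, taken by their symbols. Gene expression was measured by RNA sequencing of total RNA in 24 libraries of 2 human cell lines, PANC-1, derived from a carcinoma of the pancreatic duct, and HEK293T, an embryonic kidney line that carries adenoviral E1 genes and the SV40 large T antigen. Each line was grown in 4 culture formats with 3 libraries per format. The formats were a dual-axis rotating capillary container (DRCC) turned at 30 rpm, the same container turned at 1 rpm, AggreWell, a microwell plate that gathers cells into spheroids, and 2D culture. No drug, allele or other treatment is given for any group, and each line stands for a single genetic background. The time in culture is not stated, nor whether the 3 libraries of a group came from separate cultures, so p-values below measure the spread between libraries, which may be technical.

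Cells take up iron bound to transferrin through the transferrin receptor, reduce it in the endosome and release it into the cytosol through the divalent metal transporter. Iron that is not used is stored in ferritin, a shell of heavy and light chains, and is freed again when the receptor NCOA4 carries ferritin to the lysosome; ferroportin is the known exporter. Iron regulatory proteins 1 and 2 bind a stem-loop, the iron-responsive element, in target mRNAs when iron is scarce: binding in a 3′ UTR protects the transferrin receptor mRNA from decay, while binding in a 5′ UTR blocks translation of ferritin and ferroportin. An mRNA level therefore speaks of only some of this control, and no protein or iron was measured.

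A search of the 27-base form of the element in GENCODE release 29 transcripts found it in the UTRs of 4 of the 9 genes. These sites are shown because they divide those 4 genes by the side on which the regulatory proteins bind. The search asked for a bulged C, 5 paired bases in the upper stem, the loop CAGTGN and at least 3 of 5 pairs in the lower stem, with G–T pairs allowed. The sites are written 5′ to 3′ as DNA, with the 6 loop bases in capitals. TFRC, on chromosome 3, held 4 sites in its 3′ UTR, each present in all 3 of its transcripts. FTH1 on chromosome 11, FTL on chromosome 19 and SLC40A1 on chromosome 2 held 1 site each in the 5′ UTR.
TFRC 3′ UTR, site 1: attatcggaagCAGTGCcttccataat
TFRC 3′ UTR, site 2: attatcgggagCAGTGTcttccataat
TFRC 3′ UTR, site 3: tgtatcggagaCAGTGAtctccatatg
TFRC 3′ UTR, site 4: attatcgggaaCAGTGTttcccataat
FTH1 5′ UTR: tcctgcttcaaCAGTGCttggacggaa
FTL 5′ UTR: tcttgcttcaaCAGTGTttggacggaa
SLC40A1 5′ UTR: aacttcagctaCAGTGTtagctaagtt
The 9 genes were searched in all their coding transcripts, and each site shown was present in the longest. The same rules, applied only to the longest coding transcript of each gene, matched either UTR of 39 of 19483 genes (0.2002%). Of these, 30 matched in the 3′ UTR and 9 in the 5′ UTR. In SLC11A2, NCOA4, ACO1, IREB2 and BLVRB no stretch met both the letters and the pairing rules. An element of another form, such as one with a further unpaired base in its upper stem, would be missed. These genes are therefore not shown to lack one.

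Values are FPKM, fragments scaled by gene length and by library depth, which allow levels of different genes to be compared per length. Between 32021638 and 39556154 fragments were assigned to genes per library, as recovered from the steps between FPKM values. Changes are log2 fold changes of FPKM + 1 with their SE from limma, and a gene was called at an adjusted p under 0.05. So many genes differed between formats that a call alone says little: against 2D, 85.8% (DRCC at 30 rpm), 86.2% (DRCC at 1 rpm) and 70.0% (AggreWell) of 11585 tested genes were called in PANC-1, and 85.0%, 84.8% and 75.4% of 12548 in HEK293T. The median of all tested genes in these contrasts lay between 0.098 and 0.18 rather than at 0. Formats whose libraries did not overlap are named below gene by gene. The share of all genes without overlap was not counted, so such a separation also says little alone. Mitochondrially encoded genes took 1.60% ± 0.0269 in DRCC at 30 rpm, 2.37% ± 0.0717 in DRCC at 1 rpm, 4.28% ± 0.0300 in AggreWell, against 4.33% ± 0.310 in 2D of the fragments of PANC-1 (SD, n = 3 each), and 4.23% ± 0.0904 in DRCC at 30 rpm, 3.47% ± 0.0909 in DRCC at 1 rpm, 3.51% ± 0.0693 in AggreWell, against 4.77% ± 0.0849 in 2D of those of HEK293T. The summed FPKM of 6 PANC-1 markers was 2076 to 2726 in PANC-1 libraries and 5.11 to 36.4 in HEK293T libraries, and that of 5 HEK293T markers was 9.62 to 16.1 and 40.7 to 63.9 FPKM in the same order of lines. 3 libraries stood apart from the other 2 of their group by the chi-square per gene of their fragments: PANC-1 2D replicate 1 (8.53 and 9.54, against 3.01 between the others), HEK293T 2D replicate 2 (10.1 and 8.97, against 2.82) and HEK293T DRCC 1 rpm replicate 2 (6.94 and 7.39, against 3.26). Leaving out any 1 of them moved the counts of called genes among the iron genes described here by at most 1. Counts over all genes and over the gene lists are not given for these fits. In such bulk RNA, fewer cells of a type and less RNA per cell cannot be told apart. Every fit named below as without the mitochondrially encoded genes also scaled the remaining FPKM of each library to a common sum. The effects of the removal and of that scaling were not told apart.

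TFRC encodes the transferrin receptor, the main route of iron into dividing cells. Its mRNA was highest in AggreWell in both lines and lower than in 2D in DRCC at 1 rpm in both lines, while DRCC at 30 rpm lay below 2D in PANC-1 and above it in HEK293T. PANC-1 libraries held 53.8, 52.9 and 53.9 FPKM in DRCC at 30 rpm and 51.4, 49.9 and 51.4 FPKM in DRCC at 1 rpm. TFRC in AggreWell stood at 107, 108 and 106 FPKM, against 72.05, 75.4 and 76.6 FPKM in 2D. The libraries of the 4 formats did not overlap in PANC-1, in the order AggreWell, 2D, DRCC at 30 rpm and DRCC at 1 rpm. HEK293T libraries held 19.4, 19.7 and 20.02 FPKM in DRCC at 30 rpm and 10.5, 11.2 and 10.8 FPKM in DRCC at 1 rpm. TFRC in AggreWell stood at 34.03, 35.6 and 33.1 FPKM, against 15.8, 16.96 and 16.1 FPKM in 2D. Here too no 2 formats overlapped, and the order was AggreWell, DRCC at 30 rpm, 2D and DRCC at 1 rpm. Every PANC-1 library stood above every HEK293T library.

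Against 2D, TFRC changed in PANC-1 by -0.47 ± 0.026 on the log2 scale in DRCC at 30 rpm (limma adjusted p = 6.39e-10), by -0.54 ± 0.026 in DRCC at 1 rpm (limma adjusted p = 1.35e-10) and by 0.51 ± 0.026 in AggreWell (limma adjusted p = 1.34e-09). In HEK293T the changes were 0.26 ± 0.037 (limma adjusted p = 1.98e-05), -0.54 ± 0.037 (limma adjusted p = 1.18e-08) and 1.03 ± 0.037 (limma adjusted p = 6.49e-11) in the same order of formats. Set against AggreWell, DRCC at 1 rpm was lower, with fold changes of 0.480 in PANC-1 and 0.336 in HEK293T, as was DRCC at 30 rpm, with 0.505 in PANC-1 and 0.587 in HEK293T. The rotation speeds differed by 0.80 ± 0.037 in HEK293T (limma adjusted p = 1.41e-08). In PANC-1 they differed by 0.073 ± 0.026 (limma adjusted p = 0.0237), a small difference that turned to -0.045 after quantile normalization and to -0.034 without the mitochondrially encoded genes. That call was also lost without PANC-1 DRCC 1 rpm replicate 2 (log2 change 0.058) or without DRCC 30 rpm replicate 1 or 3 (log2 changes 0.069 and 0.068). The rise in HEK293T at 30 rpm was no longer called under median-ratio scaling, at 0.061. For the change from 2D in DRCC at 1 rpm, the difference between the lines was 7.86e-05 ± 0.044 on the log2 scale (limma adjusted p = 0.999), but it was called at 0.35 after quantile normalization. In DRCC at 30 rpm the lines differed by -0.73 ± 0.044 (PANC-1 minus HEK293T, limma adjusted p = 2.05e-12).

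**Figure D1:**
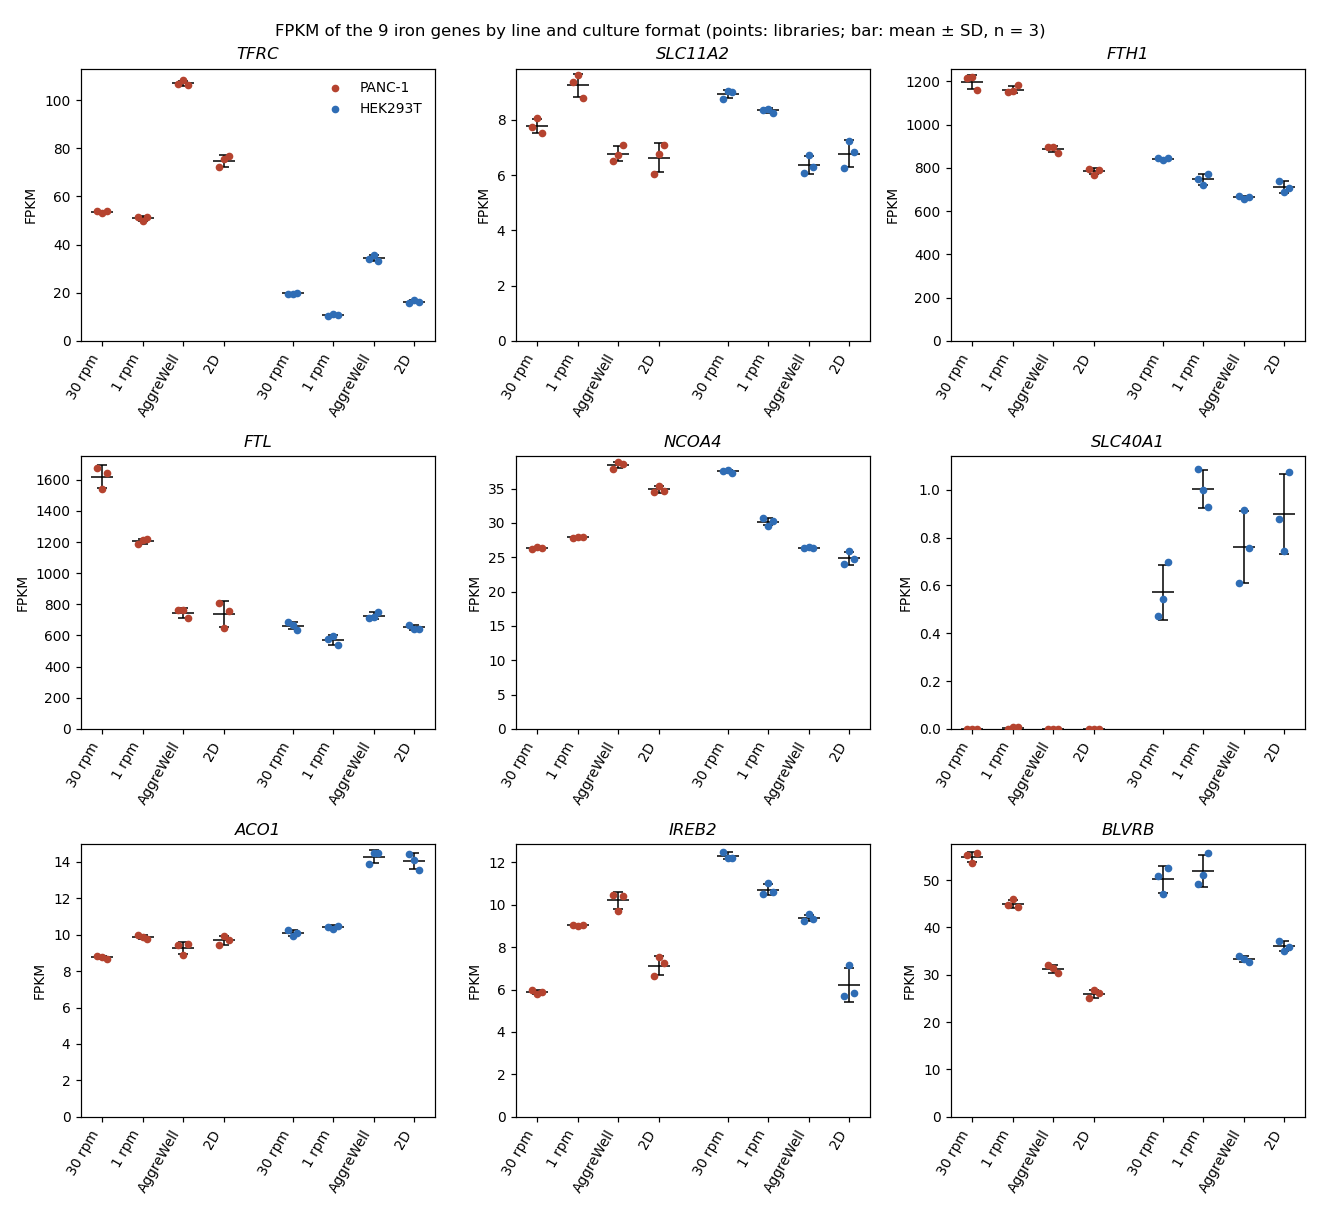
FPKM (y axis, linear, starting at 0, a scale of its own in each panel) of the 9 iron genes in the 4 formats of PANC-1 (red) and HEK293T (blue); points are libraries and bars show mean ± SD (n = 3). TFRC is highest in AggreWell in both lines, FTH1 and FTL are highest in PANC-1 grown in DRCC, and SLC40A1 is at or near 0 in all PANC-1 libraries.

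SLC11A2 encodes the divalent metal transporter DMT1, which moves iron out of the endosome and, in the gut, into the enterocyte. Its range over all 24 libraries was narrow, 6.05 to 9.62 FPKM. PANC-1 averaged 7.78 ± 0.271 FPKM in DRCC at 30 rpm, 9.26 ± 0.415 FPKM in DRCC at 1 rpm and 6.78 ± 0.275 FPKM in AggreWell, against 6.63 ± 0.524 FPKM in 2D (SD, n = 3 each). HEK293T averaged 8.94 ± 0.154 FPKM in DRCC at 30 rpm, 8.34 ± 0.0770 FPKM in DRCC at 1 rpm and 6.37 ± 0.320 FPKM in AggreWell, against 6.79 ± 0.496 FPKM in 2D. All 6 DRCC libraries of each line lay above all 6 AggreWell and 2D libraries of that line. The change from 2D in DRCC at 1 rpm was 0.43 ± 0.052 in PANC-1 (limma adjusted p = 2.76e-06) and 0.27 ± 0.047 in HEK293T (limma adjusted p = 0.000158). In DRCC at 30 rpm it was 0.20 ± 0.052 in PANC-1 and 0.35 ± 0.047 in HEK293T (limma adjusted p = 0.00214 and 1.10e-05). AggreWell and 2D were not called apart in either line; with median-ratio scaling AggreWell was lower, at -0.14 in PANC-1 and -0.28 in HEK293T, and without HEK293T 2D replicate 1 the HEK293T value was called at -0.13. The rise at 1 rpm in PANC-1 stayed called under every scaling. The PANC-1 value at 30 rpm became -0.0094 with median-ratio scaling and -0.024 with quantile normalization, and the HEK293T value at 1 rpm became 0.0021 with median-ratio scaling and -0.054 with quantile normalization, which also left the HEK293T value at 30 rpm uncalled at 0.081.

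FTH1 and FTL encode the heavy and light chains of ferritin; the heavy chain holds the ferroxidase that oxidises iron for storage, and the light chain helps form the mineral core. They were the most abundant of the 9 mRNAs in every group. In PANC-1 both were higher in DRCC than in 2D, FTL more so at 30 rpm than at 1 rpm. In HEK293T the changes were small and several depended on the scaling. Both genes have many processed pseudogene copies in the human genome, and no source names how reads matching several places were counted, so their levels carry that uncertainty.

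For FTH1, PANC-1 libraries held 1214, 1218 and 1161 FPKM in DRCC at 30 rpm and 1149, 1153 and 1181 FPKM in DRCC at 1 rpm. FTH1 in AggreWell stood at 895, 894 and 869.9 FPKM, against 793, 768 and 791 FPKM in 2D. The 6 DRCC libraries stood above all AggreWell libraries, which stood above all 2D libraries, and the 2 rotation speeds overlapped. HEK293T libraries held 845, 837 and 846 FPKM in DRCC at 30 rpm and 749, 720.2 and 770.3 FPKM in DRCC at 1 rpm. FTH1 in AggreWell stood at 671, 656 and 664 FPKM, against 738, 686 and 709 FPKM in 2D. There DRCC at 30 rpm was highest and AggreWell lowest, and DRCC at 1 rpm overlapped with 2D. The PANC-1 changes from 2D were 0.61 ± 0.026 in DRCC at 30 rpm, 0.57 ± 0.026 in DRCC at 1 rpm and 0.18 ± 0.026 in AggreWell (limma adjusted p = 4.44e-11, 9.15e-11 and 4.04e-05). The HEK293T changes were 0.25 ± 0.028, 0.070 ± 0.028 and -0.099 ± 0.028 in the same order of formats (limma adjusted p = 2.37e-06, 0.0325 and 0.00608). The HEK293T call at 1 rpm was lost without the filter, and without HEK293T 2D replicate 2 or 3 (log2 changes 0.045 and 0.068) or DRCC 1 rpm replicate 1 or 3 (log2 changes 0.068 and 0.047). The PANC-1 rises in DRCC held under every scaling. The AggreWell change in PANC-1 turned to -0.016 under median-ratio scaling, and in HEK293T the 30 rpm call was lost at 0.034, the 1 rpm change turned to -0.23 under that scaling and the AggreWell change to 0.24 under quantile normalization.

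For FTL, PANC-1 libraries held 1676, 1540.3 and 1647 FPKM in DRCC at 30 rpm and 1188, 1211 and 1219.8 FPKM in DRCC at 1 rpm. FTL in AggreWell stood at 765, 763 and 711 FPKM, against 807, 647 and 759 FPKM in 2D. The 3 formats DRCC at 30 rpm, DRCC at 1 rpm and AggreWell were fully apart in that descending order, while AggreWell and 2D overlapped. HEK293T libraries held 684, 669 and 638 FPKM in DRCC at 30 rpm and 577, 598 and 539 FPKM in DRCC at 1 rpm. FTL in AggreWell stood at 711, 716 and 752 FPKM, against 670.4, 639.8 and 644 FPKM in 2D. In this line AggreWell was highest, DRCC at 1 rpm lowest, and DRCC at 30 rpm overlapped with 2D. FTL rose in PANC-1 by 1.14 ± 0.063 in DRCC at 30 rpm, a fold change of 2.20 (limma adjusted p = 6.31e-10), and by 0.72 ± 0.063 in DRCC at 1 rpm (limma adjusted p = 9.59e-08). The 2 speeds differed by 0.43 ± 0.063 (limma adjusted p = 4.60e-05). In HEK293T FTL changed by -0.19 ± 0.038 in DRCC at 1 rpm and by 0.16 ± 0.038 in AggreWell (limma adjusted p = 0.000427 and 0.00238), and its 0.026 ± 0.038 in DRCC at 30 rpm was not called (limma adjusted p = 0.526). These HEK293T values were not stable. The 30 rpm value was called at 0.41 after quantile normalization, at 0.20 without the mitochondrially encoded genes and at -0.18 with median-ratio scaling. The 1 rpm value lost its call without the mitochondrially encoded genes, at -0.023, and was 0.31 after quantile normalization and the AggreWell value -0.075 after median-ratio scaling. The difference between the lines was large at both speeds, 1.11 ± 0.080 at 30 rpm and 0.91 ± 0.080 at 1 rpm (PANC-1 minus HEK293T, limma adjusted p = 4.44e-11 and 1.68e-09). In PANC-1 the share of mitochondrially encoded transcripts was lowest in DRCC at 30 rpm and next lowest in DRCC at 1 rpm. These were the formats with most FTL. The part of that share in the FTL values was not tested. With those genes left out and the rest of each library scaled to a common FPKM sum, the FTL changes were 1.11 and 0.79. That fit does not separate the removal from the scaling.

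NCOA4 encodes the cargo receptor that delivers ferritin to the lysosome. It was lower in DRCC than in 2D in PANC-1 and higher in DRCC than in 2D in HEK293T. PANC-1 libraries held 26.3, 26.5 and 26.3 FPKM in DRCC at 30 rpm and 27.8, 27.99 and 27.9 FPKM in DRCC at 1 rpm. NCOA4 in AggreWell stood at 37.9, 38.9 and 38.6 FPKM, against 34.6, 35.4 and 34.7 FPKM in 2D. No 2 formats overlapped, and all 6 DRCC libraries were the lowest. HEK293T libraries held 37.6, 37.7 and 37.2 FPKM in DRCC at 30 rpm and 30.7, 29.6 and 30.3 FPKM in DRCC at 1 rpm. NCOA4 in AggreWell stood at 26.3, 26.4 and 26.3 FPKM, against 24.01, 25.9 and 24.7 FPKM in 2D. No 2 formats overlapped here either, with DRCC at 30 rpm highest and 2D lowest. The changes in DRCC at 30 rpm were -0.39 ± 0.023 in PANC-1 and 0.57 ± 0.029 in HEK293T (limma adjusted p = 1.12e-09 and 5.86e-10), and those in DRCC at 1 rpm were -0.31 ± 0.023 in PANC-1 and 0.27 ± 0.029 in HEK293T (limma adjusted p = 1.27e-08 and 1.39e-06). The lines differed by -0.96 ± 0.034 at 30 rpm and -0.58 ± 0.034 at 1 rpm (limma adjusted p = 2.91e-16 and 1.59e-12). The opposite direction at 30 rpm held under every scaling, while the HEK293T value at 1 rpm was -0.016 under median-ratio scaling. The AggreWell changes, 0.14 ± 0.023 in PANC-1 and 0.081 ± 0.029 in HEK293T, were called but turned to -0.052 and -0.14 with median-ratio scaling. The HEK293T AggreWell call was also lost without 2D replicate 1 (log2 change 0.057) or 3 (0.078) and without AggreWell replicate 2 (0.080) or 3 (0.082).

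The ratio of 2 genes within a library does not depend on a scaling that multiplies all genes of a library by the same factor. Quantile normalization is not such a scaling, and the ratios were not computed under it. The log2 ratio of TFRC to FTH1, receptor over storage chain, averaged -4.48 ± 0.049 in DRCC at 30 rpm, -4.51 ± 0.026 in DRCC at 1 rpm and -3.05 ± 0.017 in AggreWell, against -3.39 ± 0.060 in 2D, in PANC-1. In HEK293T it averaged -5.42 ± 0.023 in DRCC at 30 rpm, -6.10 ± 0.084 in DRCC at 1 rpm and -4.28 ± 0.064 in AggreWell, against -5.45 ± 0.10 in 2D. The AggreWell libraries of both lines stood above their 2D libraries, and the DRCC 1 rpm libraries of both lines below them. The differences from 2D were -1.09 in DRCC at 30 rpm, -1.12 in DRCC at 1 rpm and 0.34 in AggreWell for PANC-1, and -0.66 in DRCC at 1 rpm and 1.17 in AggreWell for HEK293T, each without overlap (exact two-sided permutation test, p = 0.1, the smallest that 3 against 3 allows). In HEK293T at 30 rpm the difference of 0.029 lay within the spread (exact permutation p = 0.7). The log2 ratio of FTH1 to FTL, heavy over light chain, averaged -0.44 ± 0.087 in DRCC at 30 rpm, -0.055 ± 0.013 in DRCC at 1 rpm and 0.25 ± 0.037 in AggreWell, against 0.095 ± 0.14 in 2D, in PANC-1. In HEK293T it averaged 0.34 ± 0.055 in DRCC at 30 rpm, 0.39 ± 0.12 in DRCC at 1 rpm and -0.13 ± 0.047 in AggreWell, against 0.13 ± 0.021 in 2D. In DRCC it differed from 2D by -0.53 at 30 rpm and -0.15 at 1 rpm in PANC-1 but by 0.22 and 0.26 in HEK293T at the same speeds, again without overlap (exact permutation p = 0.1 each). In AggreWell it differed by 0.15 with overlap in PANC-1 (exact permutation p = 0.3) and by -0.26 without overlap in HEK293T (exact permutation p = 0.1). The smaller PANC-1 differences rested in part on single 2D libraries: that at 1 rpm was -0.073 without 2D replicate 2, and that in AggreWell was 0.096 without 2D replicate 1 and 0.23 without replicate 2.

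**Figure D2:**
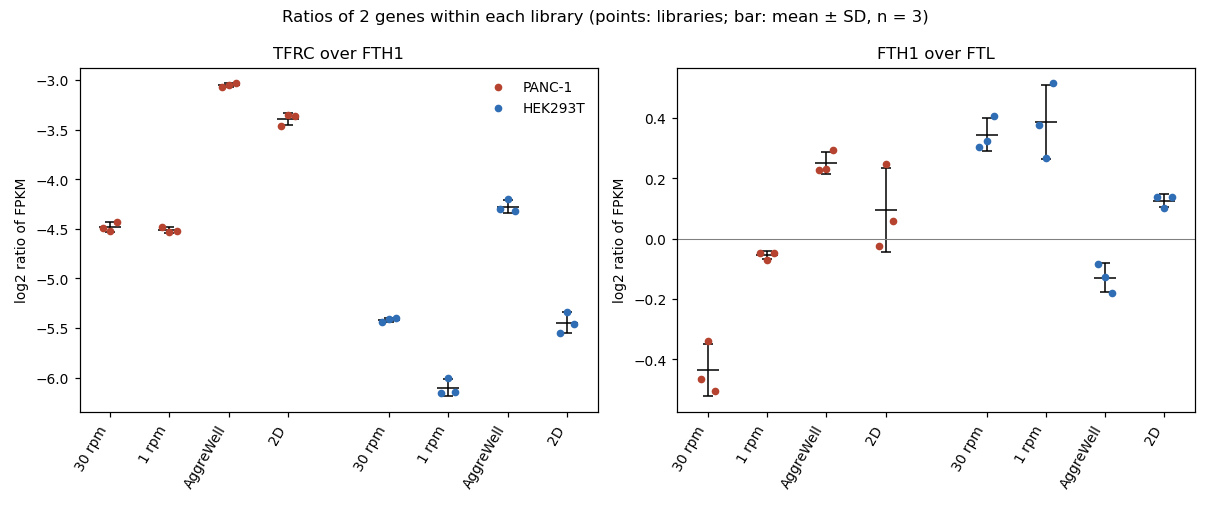
Log2 ratio of FPKM within each library (y axis) of TFRC over FTH1 (left) and FTH1 over FTL (right) in the 4 formats of PANC-1 (red) and HEK293T (blue); points are libraries and bars show mean ± SD (n = 3). TFRC over FTH1 is highest in AggreWell in both lines, and FTH1 over FTL in DRCC lies below 2D in PANC-1 and above it in HEK293T.

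SLC40A1 encodes ferroportin, the exporter of iron from the cell. It was all but undetected in PANC-1 and low in HEK293T. In PANC-1 only 2 fragments were assigned to it in all 12 libraries, 1 each in 2 libraries of DRCC at 1 rpm, and 10 libraries held 0; a count of 0 allows up to 3 fragments, or 0.0209 to 0.0243 FPKM by library, counting error only. HEK293T libraries held 0.471, 0.544 and 0.698 FPKM in DRCC at 30 rpm and 1.08, 0.999 and 0.927 FPKM in DRCC at 1 rpm. SLC40A1 in AggreWell stood at 0.611, 0.914 and 0.755 FPKM, against 0.877, 0.745 and 1.07 FPKM in 2D. These rest on 1285 fragments in all. The 3 DRCC 30 rpm libraries lay below the 3 libraries of DRCC at 1 rpm and of 2D, and overlapped with AggreWell. Only 2 HEK293T libraries reached 1 FPKM, so the gene did not pass the filter of 1 FPKM in 3 libraries and 8 of the 9 genes were tested in each line. Fitted without the filter, HEK293T DRCC at 30 rpm differed from 2D by -0.27 ± 0.082 (limma adjusted p = 0.0179) and from DRCC at 1 rpm by -0.35 ± 0.082 (limma adjusted p = 0.00924), and its other comparisons in that line were not called.

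ACO1 encodes cytosolic aconitase, which becomes iron regulatory protein 1 when it lacks its iron-sulfur cluster, and IREB2 encodes iron regulatory protein 2, which is degraded when iron is plentiful. IREB2 had the larger changes from 2D. It was higher than 2D in all 3 other formats of HEK293T and in DRCC at 1 rpm and AggreWell of PANC-1, but lower than 2D in PANC-1 DRCC at 30 rpm. PANC-1 libraries held 5.97, 5.77 and 5.87 FPKM in DRCC at 30 rpm and 9.03, 9.02 and 9.04 FPKM in DRCC at 1 rpm. IREB2 in AggreWell stood at 10.5, 9.73 and 10.4 FPKM, against 6.63, 7.52 and 7.25 FPKM in 2D. No 2 formats overlapped, and DRCC at 30 rpm was the lowest. HEK293T libraries held 12.5, 12.2 and 12.2 FPKM in DRCC at 30 rpm and 10.5, 11.01 and 10.6 FPKM in DRCC at 1 rpm. IREB2 in AggreWell stood at 9.25, 9.54 and 9.35 FPKM, against 5.69, 7.14 and 5.82 FPKM in 2D. No 2 formats overlapped here either, and DRCC at 30 rpm was the highest. The PANC-1 changes from 2D were -0.24 ± 0.043 in DRCC at 30 rpm, 0.30 ± 0.043 in DRCC at 1 rpm and 0.46 ± 0.043 in AggreWell (limma adjusted p = 0.000118, 1.30e-05 and 4.62e-07). In HEK293T they were 0.89 ± 0.059, 0.70 ± 0.059 and 0.53 ± 0.059 in the same order of formats (limma adjusted p = 9.61e-09, 1.11e-07 and 3.22e-06). At 30 rpm the lines differed by -1.13 ± 0.075 (limma adjusted p = 1.12e-11). These directions against 2D held under every scaling.

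In PANC-1 ACO1 averaged 8.76 ± 0.0911 FPKM in DRCC at 30 rpm, 9.85 ± 0.115 FPKM in DRCC at 1 rpm and 9.27 ± 0.341 FPKM in AggreWell, against 9.69 ± 0.257 FPKM in 2D (SD, n = 3 each). In HEK293T it averaged 10.1 ± 0.165 FPKM in DRCC at 30 rpm, 10.4 ± 0.0934 FPKM in DRCC at 1 rpm and 14.3 ± 0.369 FPKM in AggreWell, against 14.04 ± 0.438 FPKM in 2D. In HEK293T all 6 DRCC libraries stood below all AggreWell and 2D libraries, with changes from 2D of -0.44 ± 0.033 at 30 rpm and -0.40 ± 0.033 at 1 rpm (limma adjusted p = 3.05e-08 and 8.71e-08) that held under every scaling. In PANC-1 only DRCC at 30 rpm differed from 2D, by -0.13 ± 0.034 (limma adjusted p = 0.00261). With median-ratio scaling ACO1 was lower than 2D in all 3 other formats of PANC-1, at -0.35 in DRCC at 30 rpm, -0.19 in DRCC at 1 rpm and -0.23 in AggreWell. Quantile normalization gave the same directions in PANC-1, and without the mitochondrially encoded genes the 1 rpm value was 0.091 and called. In HEK293T AggreWell ACO1 was not called, but it was lower with median-ratio scaling (-0.19) and higher without the mitochondrially encoded genes (0.15). In HEK293T DRCC the mRNAs of the 2 regulatory proteins moved in opposite directions, ACO1 lower and IREB2 higher than in 2D.

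BLVRB encodes biliverdin reductase B, which reduces flavins and some forms of biliverdin. It was higher in DRCC than in 2D in both lines. PANC-1 libraries held 55.4, 53.5 and 55.6 FPKM in DRCC at 30 rpm and 44.7, 45.99 and 44.2 FPKM in DRCC at 1 rpm. BLVRB in AggreWell stood at 32.04, 31.5 and 30.4 FPKM, against 25.1, 26.8 and 26.1 FPKM in 2D. No 2 formats overlapped, in the descending order DRCC at 30 rpm, DRCC at 1 rpm, AggreWell and 2D. HEK293T libraries held 50.8, 47.1 and 52.6 FPKM in DRCC at 30 rpm and 49.2, 51.02 and 55.7 FPKM in DRCC at 1 rpm. BLVRB in AggreWell stood at 33.9, 33.3 and 32.7 FPKM, against 37.1, 35.1 and 35.8 FPKM in 2D. The 6 DRCC libraries stood above all others, and the 2 speeds overlapped. BLVRB rose in DRCC at 30 rpm by 1.05 ± 0.031 in PANC-1 and 0.47 ± 0.047 in HEK293T (limma adjusted p = 1.04e-12 and 7.25e-07) and in DRCC at 1 rpm by 0.77 ± 0.031 and 0.52 ± 0.047 in the same order of lines (limma adjusted p = 2.28e-11 and 2.61e-07). In AggreWell it rose in PANC-1 by 0.26 ± 0.031 (limma adjusted p = 5.72e-06), a call lost at 0.072 with median-ratio scaling, and the -0.11 ± 0.047 in HEK293T was not called (limma adjusted p = 0.0520), though it was called without HEK293T 2D replicate 2 (-0.13) and with median-ratio scaling (-0.33). HMOX1, the inducible haem oxygenase that frees iron from haem, averaged 236 ± 0.880 FPKM in PANC-1 DRCC at 30 rpm and 85.8 ± 4.85 at 1 rpm, against 10.6 ± 1.06 in 2D. In HEK293T it averaged 621 ± 1.97 FPKM at 30 rpm and 273 ± 2.18 at 1 rpm, against 55.9 ± 2.04 in 2D (SD, n = 3 each); the log2 changes were 4.36 and 2.91 in PANC-1 and 3.45 and 2.27 in HEK293T (limma adjusted p of 2.84e-14 or less).

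Over the 8 tested genes, the numbers called were near the share of all genes. In PANC-1, 8 were called against 2D in DRCC at 30 rpm (4 higher, 4 lower, where 53.6% of all tested genes were higher and 32.2% lower), 7 in DRCC at 1 rpm (5 and 2, against 52.3% and 33.9%) and 5 in AggreWell (all higher, against 45.9%). In HEK293T, 7 were called in DRCC at 30 rpm (6 higher, 1 lower, against 49.6% and 35.5% of all), 8 in DRCC at 1 rpm (5 and 3, against 53.1% and 31.7%) and 5 in AggreWell (4 and 1, against 48.6% and 26.8%). The median change of the 8 genes was 0.037, 0.37 and 0.16 in PANC-1, beside 0.17, 0.15 and 0.098 over all tested genes. In HEK293T it was 0.31, 0.17 and 0.053, beside 0.13, 0.18 and 0.12. The split of all genes depends on the scaling: with median-ratio scaling the PANC-1 calls against 2D were 4709 higher and 5202 lower in DRCC at 30 rpm, 4602 and 5257 in DRCC at 1 rpm and 3336 and 4957 in AggreWell, where without it they were 6209 and 3726, 6063 and 3922, and 5322 and 2788. In HEK293T they were 4938 and 5678, 4798 and 5790, and 4022 and 5569 with that scaling, and 6222 and 4450, 6666 and 3976, and 6099 and 3359 without it. Quantile normalization likewise left more genes lower than higher in all 6. Leaving out the mitochondrially encoded genes and scaling the rest of each library to a common FPKM sum moved the AggreWell calls. They became 6676 higher and 1823 lower in PANC-1 and 7570 and 2248 in HEK293T. Relative to the median of all genes, 2 called changes from 2D changed sign, FTH1 in HEK293T DRCC at 1 rpm (-0.11) and NCOA4 in HEK293T AggreWell (-0.034). TFRC in AggreWell stood 0.42 above that median in PANC-1 and 0.91 in HEK293T, and FTL in PANC-1 DRCC at 30 rpm stood 0.97 above it.

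**Figure D3:**
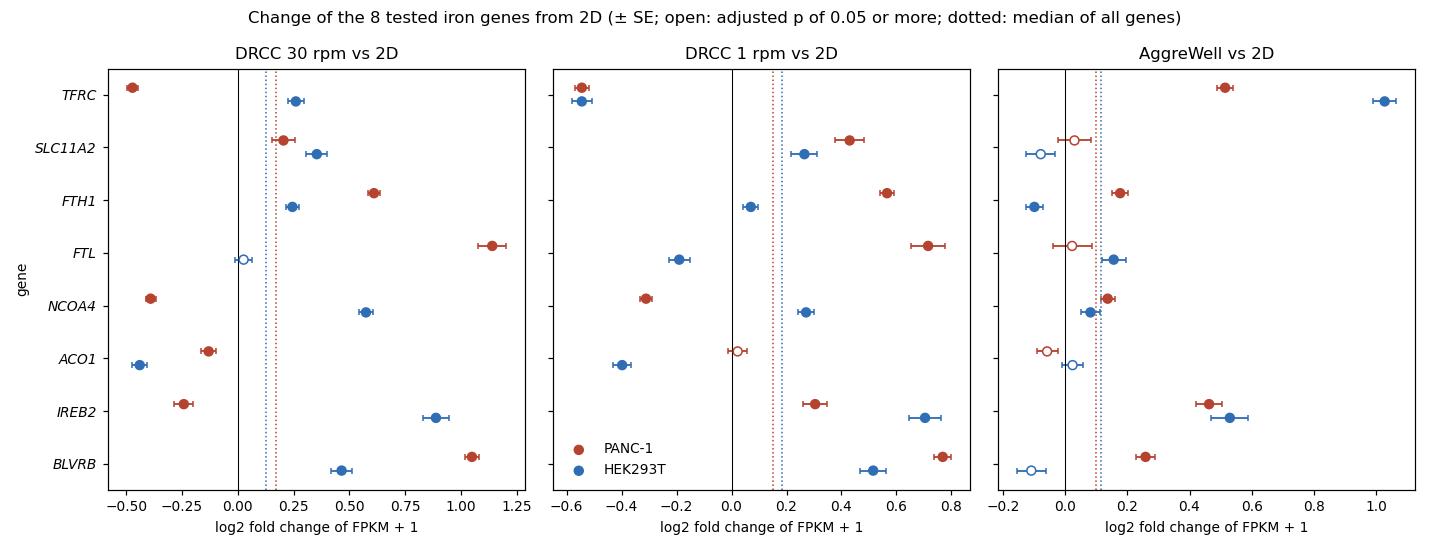
Log2 fold change of FPKM + 1 from 2D (x axis, its own range in each panel) of the 8 tested genes in DRCC at 30 rpm, DRCC at 1 rpm and AggreWell, for PANC-1 (red) and HEK293T (blue), with SE bars; open points had an adjusted p of 0.05 or more and dotted lines mark the median of all tested genes. TFRC, NCOA4 and IREB2 lie on opposite sides of 0 in the 2 lines in DRCC at 30 rpm. In AggreWell TFRC is far to the right of the dotted lines in both lines.

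Between the 3D formats themselves, most of the 8 genes were called, as were most genes. For PANC-1 DRCC at 30 rpm against AggreWell, 7 were called (4 higher and 3 lower), where 83.3% of all tested genes were called, 45.4% higher and 37.8% lower. Without the mitochondrially encoded genes the all-gene calls of that comparison were 4336 higher and 5357 lower, and with quantile normalization 4615 and 5151. For PANC-1 DRCC at 1 rpm against AggreWell, 8 were called (5 higher and 3 lower), beside 82.0% of all genes, 43.7% higher and 38.4% lower. Among these the ACO1 call (0.080, limma adjusted p = 0.0412) was lost with median-ratio scaling (0.042) and quantile normalization (0.037). It was also lost without the mitochondrially encoded genes (0.058), without AggreWell replicate 2 (0.053) and without any single DRCC 1 rpm library. For PANC-1 at 30 rpm against 1 rpm, 7 were called (3 higher and 4 lower), beside 68.1% of all genes, 36.2% higher and 31.9% lower. For HEK293T DRCC at 30 rpm against AggreWell, 8 were called (5 higher and 3 lower), beside 78.5% of all genes, 39.9% higher and 38.7% lower. For HEK293T DRCC at 1 rpm against AggreWell, 8 were called (5 higher and 3 lower), beside 75.6% of all genes, 41.8% higher and 33.8% lower. For HEK293T at 30 rpm against 1 rpm, 5 were called (5 higher and 0 lower), beside 52.6% of all genes, 19.6% higher and 32.9% lower. The 30 rpm to 1 rpm comparison gave opposite signs for IREB2, -0.55 ± 0.043 in PANC-1 and 0.18 ± 0.059 in HEK293T, and for NCOA4, -0.079 ± 0.023 and 0.30 ± 0.029 in the same order of lines (limma adjusted p = 1.21e-07, 0.0202, 0.00710 and 4.27e-06). The IREB2 call in HEK293T was lost without DRCC 1 rpm replicate 1 (log2 change 0.17) or 3 (0.18) or DRCC 30 rpm replicate 1 (0.17). The difference between these 2 contrasts was not itself tested. The IREB2 call in HEK293T DRCC at 1 rpm against AggreWell was lost without AggreWell replicate 1 (log2 change 0.16) or DRCC 1 rpm replicate 2 (0.16). All-gene calls for 30 rpm against 1 rpm were 2464 higher and 4134 lower in HEK293T, and 3879 and 2725 with median-ratio scaling or 3361 and 3234 with quantile normalization. In PANC-1 they were 4188 and 3697, and 2943 and 5063 without the mitochondrially encoded genes. The change from 2D was then compared between the lines over 13392 genes. In DRCC at 30 rpm 7 of the 8 genes differed, 4 above 0 and 3 below 0 as PANC-1 minus HEK293T, beside 79.5% of all genes, 42.0% above and 37.5% below. In DRCC at 1 rpm 7 of the 8 genes differed, 5 above 0 and 2 below 0 as PANC-1 minus HEK293T, beside 75.8% of all genes, 35.8% above and 40.0% below. In AggreWell 3 of the 8 genes differed, 2 above 0 and 1 below 0 as PANC-1 minus HEK293T, beside 57.0% of all genes, 25.0% above and 32.0% below. At 30 rpm the all-gene calls were 5624 above and 5018 below 0, and 4373 and 6290 without the mitochondrially encoded genes. The DRCC and AggreWell contrasts share their 2D libraries.

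Other genes of iron and haem handling were taken as 4 lists, to be read beside the shares of all tested genes: 53.6% higher and 32.2% lower in DRCC at 30 rpm, 52.3% and 33.9% at 1 rpm and 45.9% and 24.1% in AggreWell in PANC-1. In HEK293T these shares were 49.6% and 35.5%, 53.1% and 31.7%, and 48.6% and 26.8%. Of 30 other iron handling genes, 18 were tested in PANC-1 and 17 in HEK293T; against 2D in DRCC at 30 rpm 9 were higher and 5 lower in PANC-1, with 7 higher and 8 lower in HEK293T. In DRCC at 1 rpm the counts were 10 higher and 5 lower in PANC-1 and 10 and 5 in HEK293T, and in AggreWell 7 and 7 in PANC-1 and 11 and 6 in HEK293T. These counts moved with the scaling: in AggreWell they were 4 and 8 in PANC-1 and 6 and 6 in HEK293T with median-ratio scaling, 4 and 6 in PANC-1 and 6 and 8 in HEK293T with quantile normalization, and 9 and 3 in PANC-1 and 11 and 4 in HEK293T without the mitochondrially encoded genes. In DRCC with median-ratio scaling they were 8 and 8 at both speeds in PANC-1, and 6 and 8 at 30 rpm and 7 and 9 at 1 rpm in HEK293T. BMP6, the liver signal that raises hepcidin, averaged 50.4 ± 0.940 FPKM in PANC-1 DRCC at 30 rpm and 9.24 ± 0.146 FPKM in PANC-1 AggreWell, against 16.3 ± 0.334 FPKM in 2D (SD, n = 3 each). SLC25A37, mitoferrin 1, which carries iron into mitochondria, averaged 35.1 ± 1.26 FPKM at 30 rpm and 38.3 ± 0.312 FPKM at 1 rpm in PANC-1, against 19.4 ± 0.0839 FPKM in 2D. CYBRD1, a ferric reductase, averaged 2.08 ± 0.0967 FPKM in PANC-1 DRCC at 1 rpm, against 0.588 ± 0.0287 in 2D. STEAP3, the endosomal ferric reductase that works beside the transferrin receptor, fell in HEK293T to 5.83 ± 0.133 FPKM at 30 rpm and 7.30 ± 0.237 FPKM at 1 rpm, against 18.4 ± 0.342 FPKM in 2D (log2 changes -1.50 and -1.22). FBXL5, the ligase subunit that marks iron regulatory protein 2 for degradation, averaged 11.7 ± 0.149 FPKM in HEK293T DRCC at 30 rpm, against 6.44 ± 0.438 FPKM in 2D. EXOC6, an exocyst subunit tied to transferrin recycling in mice, averaged 4.27 ± 0.169 FPKM in PANC-1 AggreWell, against 2.69 ± 0.189 in 2D, and 4.13 ± 0.140 FPKM in HEK293T DRCC at 1 rpm, against 1.60 ± 0.0883 in 2D. In HEK293T AggreWell, MELTF, melanotransferrin, averaged 10.3 ± 0.304 FPKM, against 4.39 ± 0.202 in 2D, and STEAP1 11.5 ± 0.482 FPKM, against 6.09 ± 0.712 in 2D. All values named in this and the next 2 paragraphs passed the test, with a highest limma adjusted p of 0.000146.

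The 25 genes of iron-sulfur cluster assembly were mostly lower than in 2D in HEK293T: 19 of 25 in DRCC at 30 rpm, 17 in DRCC at 1 rpm and 17 in AggreWell were lower, and 3, 5 and 3 higher. Their medians were -0.29, -0.33 and -0.29, beside medians of 0.13, 0.18 and 0.12 over all tested genes. More genes of the list were lower than higher in HEK293T with median-ratio scaling, with quantile normalization and without the mitochondrially encoded genes too, with medians of -0.61 to -0.15 over the 3 formats. In PANC-1, where 24 were tested, 9, 16 and 12 were lower and 9, 4 and 5 higher in the same order of formats, with medians of -0.021, -0.20 and -0.13. The PANC-1 split depended on the scaling, with 14, 20 and 19 lower and 6, 4 and 2 higher under median-ratio scaling, 14, 18 and 15 lower and 8, 5 and 4 higher after quantile normalization, and 11, 14 and 7 lower and 9, 5 and 6 higher without the mitochondrially encoded genes. BOLA3, which acts late in the mitochondrial pathway, averaged 51.2 ± 2.88 FPKM at 30 rpm and 60.5 ± 1.30 FPKM at 1 rpm in HEK293T, against 129 ± 5.36 FPKM in 2D. CIAPIN1, an electron carrier of the cytosolic pathway, averaged 33.9 ± 1.10 FPKM and 35.3 ± 1.85 FPKM at those speeds, against 61.02 ± 1.53 FPKM in 2D. In HEK293T AggreWell the ferredoxin FDX2 averaged 14.9 ± 0.341 FPKM, against 28.1 ± 1.94 in 2D, and the cysteine desulfurase NFS1 13.1 ± 1.06 FPKM, against 21.3 ± 0.311 in 2D. In PANC-1 the ferredoxin reductase FDXR went the other way, with 13.1 ± 0.351 FPKM at 30 rpm, 12.2 ± 0.525 FPKM at 1 rpm and 9.08 ± 0.355 FPKM in AggreWell, against 5.10 ± 0.209 FPKM in 2D. The scaffold ISCU averaged 23.6 ± 1.18 FPKM in PANC-1 DRCC at 30 rpm, against 13.2 ± 0.131 in 2D. NUBP1, a scaffold of the cytosolic pathway, averaged 8.44 ± 1.06 FPKM in PANC-1 DRCC at 1 rpm, against 17.5 ± 0.893 in 2D.

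Of 12 tested haem synthesis genes, 6 were higher and 6 lower in PANC-1 DRCC at 30 rpm, 5 and 6 at 1 rpm and 5 and 4 in AggreWell; in HEK293T the counts were 3 and 8, 3 and 7, and 3 and 7. In HEK293T more of these genes were lower than higher in all 3 formats under each of the other scalings too. In PANC-1 AggreWell they were 3 higher and 6 lower with median-ratio scaling, 3 and 5 with quantile normalization and 6 and 3 without the mitochondrially encoded genes. PPOX, the penultimate enzyme, averaged 4.48 ± 0.160 FPKM at 30 rpm and 3.82 ± 0.0252 FPKM at 1 rpm in PANC-1, against 1.38 ± 0.233 FPKM in 2D, and 8.64 ± 0.116 FPKM in HEK293T at 30 rpm, against 4.09 ± 0.165 in 2D. CPOX, the enzyme before it, fell in HEK293T to 12.8 ± 0.492 FPKM at 30 rpm, 14.5 ± 1.95 at 1 rpm and 20.2 ± 1.35 in AggreWell, against 29.8 ± 3.78 in 2D. The porphyrin transporter ABCB6 rose to 7.46 ± 0.182 FPKM in PANC-1 DRCC at 30 rpm and 4.11 ± 0.113 in PANC-1 AggreWell, against 2.67 ± 0.174 in 2D, and to 16.3 ± 0.611 FPKM in HEK293T AggreWell, against 7.78 ± 0.284 in 2D. ALAD, the second enzyme, averaged 3.56 ± 0.245 FPKM in PANC-1 AggreWell, against 2.20 ± 0.122 in 2D. Among haem breakdown and transport genes, 9 tested in PANC-1 and 8 in HEK293T, 5 were higher and 3 lower in PANC-1 DRCC at 30 rpm, 5 and 4 at 1 rpm and 4 and 3 in AggreWell, with 3 and 5, 3 and 4, and 1 and 4 in HEK293T. With median-ratio scaling these counts were 3 and 4, 4 and 4, and 3 and 5 in PANC-1, and 3 and 5, 2 and 5, and 0 and 6 in HEK293T, and without the mitochondrially encoded genes HEK293T AggreWell had 3 and 3. HMOX2, the constitutive haem oxygenase, moved against HMOX1 in DRCC, at 13.5 ± 0.843 FPKM in PANC-1 at 1 rpm, against 27.6 ± 1.03 in 2D, and 13.8 ± 0.340 FPKM at 30 rpm and 13.1 ± 0.744 FPKM at 1 rpm in HEK293T, against 29.9 ± 1.03 FPKM in 2D. In HEK293T AggreWell both haem oxygenases were lower than in 2D, HMOX1 at 35.97 ± 2.12 FPKM, against 55.9 ± 2.04, and HMOX2 at 18.7 ± 0.594 FPKM, against 29.9 ± 1.03. In PANC-1 the lysosomal haem transporter SLC48A1 averaged 7.06 ± 0.214 FPKM in DRCC at 30 rpm, against 3.00 ± 0.214 in 2D. In PANC-1 AggreWell FLVCR2 averaged 5.48 ± 0.573 FPKM, against 2.72 ± 0.255 in 2D, and the efflux pump ABCG2 1.82 ± 0.104 FPKM, against 0.971 ± 0.0536 in 2D.

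**Figure D4:**
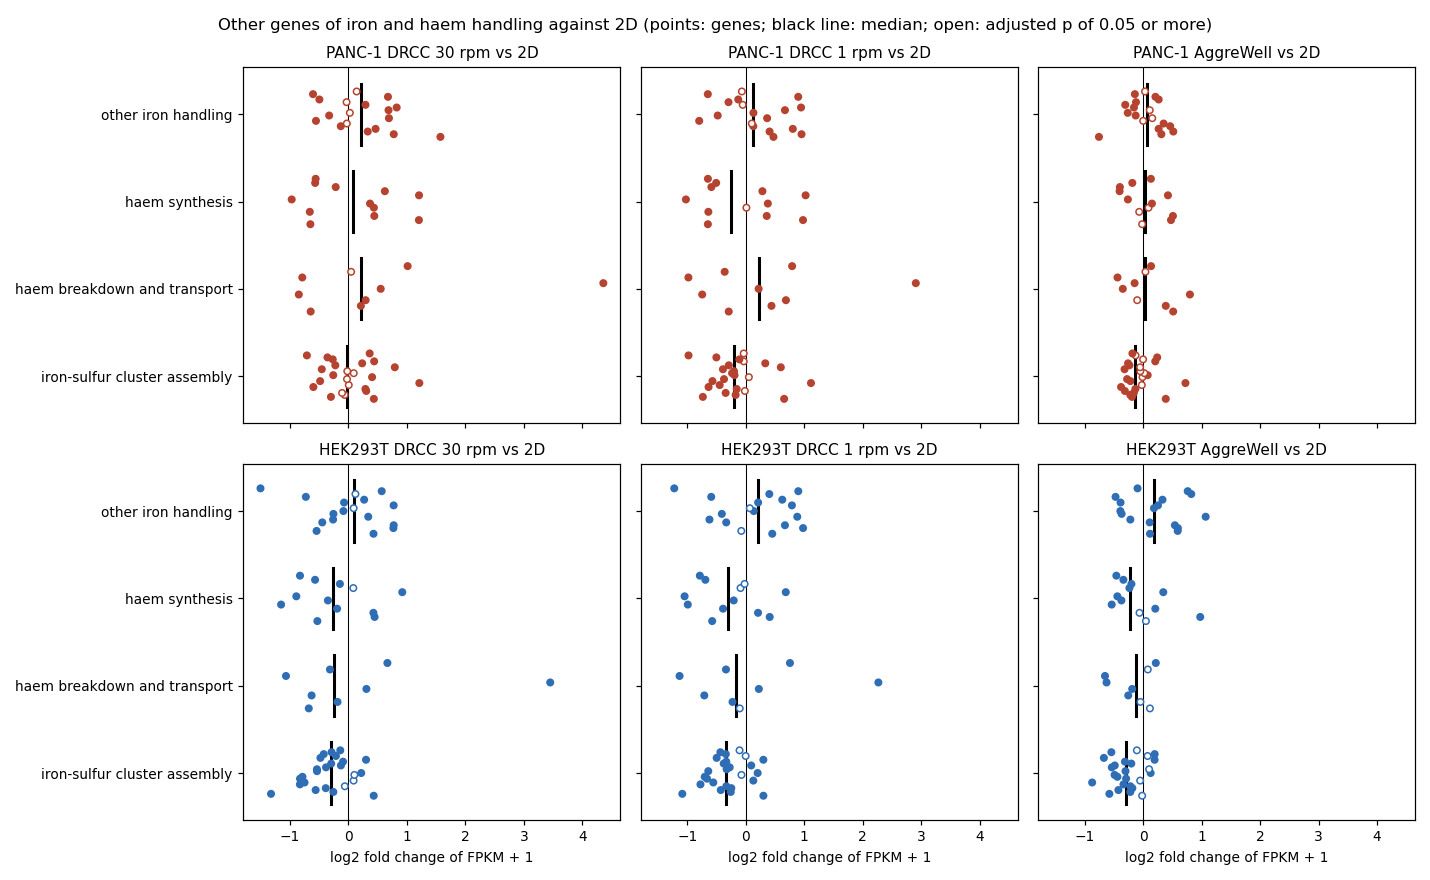
Log2 fold change of FPKM + 1 from 2D (x axis, the same range in all panels) of each tested gene of the 4 lists in DRCC at 30 rpm, DRCC at 1 rpm and AggreWell for PANC-1 (top, red) and HEK293T (bottom, blue); points are genes, open points had an adjusted p of 0.05 or more, and black lines mark list medians. The iron-sulfur list lies mostly below 0 in HEK293T, and the single point far to the right in the DRCC panels is HMOX1, which reaches 4.36 in PANC-1 at 30 rpm.

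As a description, the genes whose pattern was most like each of the 8 genes were found by Pearson correlation of log2(FPKM + 1) over the 24 libraries after removing the mean of each line, among 8028 genes; the libraries share format and depth, and no p is given. The most alike were DDX5 for TFRC (r = 0.94), PRRC1 for SLC11A2 (0.95), SEC61A2 for FTH1 (0.97), UBE2O for FTL (0.96), PRIM1 for NCOA4 (0.96), GUCD1 for ACO1 (0.96), DBF4 for IREB2 (0.97) and ITM2C for BLVRB (0.97). The next 2 in rank were NBPF1 and LYAR for TFRC, GRPEL2 and LETMD1 for SLC11A2, PSAP and SNHG20 for FTH1, UPF1 and XYLT2 for FTL, SGO1 and BUB1B for NCOA4, ACLY and EPOP for ACO1, FASTKD1 and ZMYM1 for IREB2 and RTN2 and DDAH2 for BLVRB, with r between 0.92 and 0.97. Among the 8 genes themselves the closest pair was FTH1 and BLVRB (r = 0.93), followed by SLC11A2 with BLVRB (0.77), FTH1 with FTL (0.77) and SLC11A2 with FTH1 (0.76). IREB2 and NCOA4 went together at r = 0.73, and the most opposed pairs were FTL with NCOA4 (-0.68) and TFRC with BLVRB (-0.67).

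Promoters, 250 bases before to 50 after the start in the RefSeq table of GRCh38.p14, were found for 8 of the 9 genes, all but FTH1. These genes have 13 promoters in the table, since some have several. The antioxidant response core TGACNNNGC, read on both strands, was in 1 of the 13 (of NCOA4), where 13.35% of 35116 promoters of that length hold it. The hypoxia response cores ACGTG and GCGTG were in 2 (of TFRC and FTL) and in 7 of the 13, the 7 from 5 genes, where 21.41% and 36.54% of all promoters hold them. A match is a description of the letters and not a site shown to be bound.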

How the data were processed

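RNA sequencing libraries were made from total RNA with a VAHTS Universal V10 kit, per the labels' protocols; whether the kit marks strand is not stated, so a gene and an antisense or overlapping partner cannot be told apart. Values are FPKM per gene as deposited by the authors. The submitters' processing notes name fastp, HISAT2, HTSeq and R 3.2.0 and give the build as mm10, a mouse build, while the rows carry human symbols; the build used for these rows is not settled here, so no coordinates are printed. FPKM steps gave whole fragments for 26449 of 26450 genes (tolerance 0.01 fragments), with 32021638 to 39556154 fragments per library. The gene lengths implied by well-covered genes lay a median of 0.251 from a whole number, and so gave no check of the counts. Library totals differed from the depth implied by the steps by a relative 0.0168 at most. Replicate libraries of a group differed beyond counting noise (chi-square per gene 2.82 to 10.1).

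Genes with at least 1 FPKM in at least 3 libraries of a fit were tested with limma 3.58.1 (R 4.3.3) on log2(FPKM + 1), which understates changes of low genes, in 1 fit per line (12 libraries) and 1 over all 24 for the difference between lines, with Benjamini-Hochberg adjustment over all tested genes and a threshold of 0.05. Within-library ratios had an exact permutation test. The fit was also run on simulated data in which few genes changed, unlike here, so that run does not bear on the shares of genes called. Alternatives were the pseudocount (0.1), the filter, median-ratio and quantile scaling, leaving out mitochondrially encoded genes, voom on recovered fragments, fits of 2 formats only, a replicate block (same-numbered libraries of HEK293T DRCC at 1 rpm and 2D deviated together, at correlations of 0.16, 0.43 and 0.15) and leaving out each library. All 9 genes are named everywhere; of the 4 gene lists, the 2 called genes with the largest change per format against 2D are named, except a few that are not reported here. The members and lists were chosen with earlier results of these data known. Sequences are from GENCODE release 29 transcripts and the RefSeq promoter table; proteins were not used here.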

Additional observations from a re-analysis of the deposited data

Results flagged for a closer look

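A difference between the 2 lines in the change from 2D, tested as the line by format interaction, passed the threshold for 17 combinations of gene and format, given here as PANC-1 minus HEK293T on the log2 scale with limma's test over 13392 genes. In DRCC at 30 rpm the differences were -0.73 for TFRC, 0.37 for FTH1, 1.11 for FTL, -0.96 for NCOA4, 0.31 for ACO1, -1.13 for IREB2 and 0.58 for BLVRB. In DRCC at 1 rpm they were 0.16 for SLC11A2, 0.50 for FTH1, 0.91 for FTL, -0.58 for NCOA4, 0.42 for ACO1, -0.40 for IREB2 and 0.25 for BLVRB. In AggreWell they were -0.51 for TFRC, 0.28 for FTH1 and 0.37 for BLVRB. The largest of these in size were IREB2, FTL and NCOA4 in DRCC at 30 rpm, and for IREB2 and NCOA4 the 2 lines moved in opposite directions there. The smallest, SLC11A2 at 1 rpm, had an adjusted p of 0.0416 from limma and was lost under 10 of its alternatives, among them the fit with no filter and 8 of those that leave out 1 library. BLVRB at 1 rpm lost its call after quantile normalization, at 0.094. Such differences were frequent over all genes, as the shares given with the counts of the 8 genes show.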

How the results depend on the processing

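Changing the pseudocount to 0.1 or the variance shrinkage to a robust one kept every value and count given for the 8 genes on its side of the threshold, and voom on recovered fragments changed only the difference between lines for SLC11A2 at 30 rpm, which became called. Fits of 2 formats only ended the calls against 2D of NCOA4 in HEK293T AggreWell and of FTH1 in HEK293T DRCC at 1 rpm. They also ended that of ACO1 in PANC-1 DRCC at 1 rpm against AggreWell. The call they added was that of BLVRB in HEK293T AggreWell against 2D. Counts of called genes among these 8 stayed within 1.5 times under every alternative, with 1 exception. That was quantile normalization for PANC-1 AggreWell against 2D, where all 8 were called in place of 5. Scaling decided the direction of several small changes; the cause was not tested. With median-ratio scaling, PANC-1 AggreWell against 2D turned to -0.14 for SLC11A2, -0.016 for FTH1, -0.17 for FTL and -0.052 for NCOA4, PANC-1 DRCC against 2D to -0.0094 for SLC11A2 at 30 rpm and -0.19 for ACO1 at 1 rpm, HEK293T against 2D to -0.18 for FTL at 30 rpm, -0.23 for FTH1 and -0.016 for NCOA4 at 1 rpm, and -0.075 for FTL, -0.14 for NCOA4 and -0.19 for ACO1 in AggreWell, and HEK293T 30 rpm against 1 rpm to 0.038 for ACO1 and 0.035 for BLVRB; the line difference of TFRC at 1 rpm was -0.023. With quantile normalization, PANC-1 values turned to -0.12 for SLC11A2 in AggreWell, -0.024 for SLC11A2 at 30 rpm and -0.14 for ACO1 at 1 rpm against 2D, and for 30 rpm against 1 rpm to -0.045 for TFRC and -0.043 for FTH1. HEK293T values against 2D turned to -0.054 for SLC11A2 and 0.31 for FTL at 1 rpm, and to 0.24 for FTH1 and -0.091 for ACO1 in AggreWell, and the line difference of IREB2 in AggreWell to 0.0089. Leaving out the mitochondrially encoded genes, with the rest of each library then scaled to a common FPKM sum, also turned some values. Against 2D they became 0.033 for ACO1 in PANC-1 AggreWell, and 0.038 for SLC11A2, 0.035 for FTH1 and 0.021 for BLVRB in HEK293T AggreWell. In PANC-1 30 rpm against 1 rpm they became -0.034 for TFRC and -0.064 for FTH1. The line difference of TFRC at 1 rpm became -0.081. Leaving out each library in turn gave -0.020 to 0.0841 for the TFRC to FTH1 ratio in HEK293T DRCC at 30 rpm against 2D, the lowest without HEK293T 2D replicate 1. It gave -0.026 to 0.0723 for SLC11A2 and -0.069 to 0.090 for FTL in PANC-1 AggreWell against 2D, -0.088 to 9.14e-05 for BLVRB in HEK293T 30 rpm against 1 rpm, and -0.028 to 0.021 for the line difference of TFRC at 1 rpm. Within a line, the largest change whose call was lost when a library was left out was that of IREB2 in HEK293T 30 rpm against 1 rpm.

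Replicate numbers did not pair the libraries in PANC-1, where deviations of same-numbered libraries correlated at -0.092 to 0.11 over 18 pairs and 1 of 12 libraries correlated best with its own number. In HEK293T the correlations ran from -0.097 to 0.43 and 8 of 12 libraries correlated best with their own number, a hint of shared numbering from the data, and every pair passed 0.1 only between DRCC at 1 rpm and 2D. A fit with the replicate number as a block moved no count of the 8 genes by over 1.5 times. It added the calls of SLC11A2 for the line difference at 30 rpm (-0.15) and of BLVRB in HEK293T AggreWell against 2D (-0.11) and ended that of ACO1 in PANC-1 DRCC at 1 rpm against AggreWell (0.080), and it changed no other call of the 8 genes. The planned sums of ferritin genes with their pseudogene rows were not run, since no row used carries such a symbol. At this depth SLC40A1 in PANC-1 cannot be told from 0, and the exact tests of 3 against 3 libraries cannot go below 0.1.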
